A study of Mus musculus with 6 samples.

Results

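Adrenergic and cAMP signalling in fat was described through 9 genes: the β-adrenergic receptors Adrb1 and Adrb3, the α-adrenergic receptors Adra1a and Adra2a, the stimulatory G protein gene Gnas, the adenylyl cyclase gene Adcy3, the protein kinase A regulatory subunit gene Prkar2b, and the phosphodiesterase genes Pde3b and Pde4d. A gene was taken as measured where at least 1 probe set of the Affymetrix Mouse Genome 430 2.0 array carried its symbol and no other. By that rule 5 of the 9 genes, with 15 probe sets, entered the comparison out of 18193 genes on the array. Adrb1, Adrb3, Adra1a and Adra2a were not analysed here, since the annotation used names no probe set for them, so the results concern the signalling steps inside the cell.

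RNA came from inguinal white adipose tissue (iWAT), the subcutaneous fat of the groin, of 3 Naa10-KO and 3 wild-type (WT) males, and each mouse had its own array. Naa10 supplies the catalytic activity of an acetyltransferase that acts on the N-termini of proteins. Mice of both genotypes began a diet in which fat gave 60% of the calories at 6 weeks of age, stayed on it for 15 weeks, and spent 4 h at 4 °C just before tissue collection. The labels do not give how the knockout was made or which tissues carry it, and Naa10 had no named probe set, so the genotype was not checked against its transcript. The series has no arrays of mice kept warm, so a response to cold was not measured. The series title asks whether Naa10 restrains heat production by beige adipocytes, which cold acts on through this pathway.

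Noradrenaline from sympathetic nerves binds β-adrenergic receptors on fat cells. The receptors activate the G protein Gsα, which turns on adenylyl cyclases that make cAMP. The messenger cAMP binds the regulatory subunits of protein kinase A (PKA) and frees its catalytic subunits, which phosphorylate lipolytic proteins and the transcription factor CREB. Phosphodiesterases break cAMP down and end the signal. α2-adrenergic receptors couple to inhibitory G proteins and lower cAMP, and α1-adrenergic receptors act through calcium.

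No member passed the threshold between genotypes. Of the 5 genes, 0 were called in limma at a Benjamini-Hochberg adjusted p of 0.05 over all genes, where 0.115% of genes were called (0.0879% higher and 0.0275% lower in Naa10-KO). At an unadjusted p under 0.05 there was 1 member, Pde4d, where 9.20% of all genes reached that level. Means were higher in Naa10-KO for Pde3b and Pde4d and lower for Gnas, Adcy3 and Prkar2b. For Pde3b and for Pde4d the lowest Naa10-KO array exceeded the highest WT array, a pattern that 10.0% of all genes showed. The median size of the difference was 0.23 log2 units for the 5 members and 0.29 for all genes. The median standard error (SE) was 0.19 for the members and 0.27 for all genes, so these sizes are not compared at like noise. Signals are the deposited log2 values, differences are Naa10-KO minus WT on that scale, and means are given ± SD. Intervals are limma's for the single gene, with no adjustment. All 6 arrays of the representing probe set of each member lay above 5.86, the median of all deposited values, which served as the mark for low signal.

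**Figure D1:**
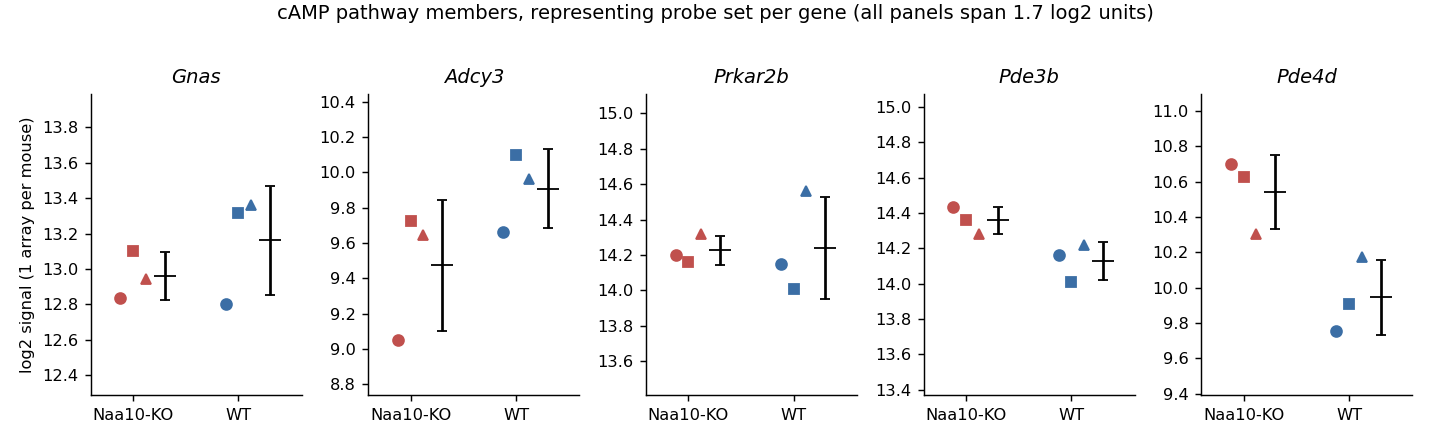
Log2 signal of the representing probe set of each measured member on the 3 Naa10-KO arrays (red, left) and the 3 WT arrays (blue, right), with circle, square and triangle for replicates 1, 2 and 3 and black bars for mean ± SD. The groups separate for Pde3b and Pde4d and overlap for Gnas, Adcy3 and Prkar2b, and all panels cover the same length of axis.

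Gnas encodes Gsα, the G protein subunit that carries the receptor's signal to the cyclase. Its representing probe set was at 12.83, 13.10 and 12.94 on the Naa10-KO arrays, against 12.80, 13.31 and 13.36 on the WT arrays. The lowest value of all was that of WT replicate 1, so the groups overlapped. Means were 12.96 ± 0.13 in Naa10-KO and 13.16 ± 0.31 in WT (n = 3 each). The log2 difference was -0.20 (SE 0.21, 95% interval -0.72 to 0.32, limma adjusted p = 0.770), so the interval leaves out a change of 1 log2 unit, or 2-fold, either way. The size depended on single WT arrays, being -0.38 without WT replicate 1, -0.12 without WT replicate 2 and -0.10 without WT replicate 3.

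The other 4 Gnas probe sets gave weak signals. Of them, 3 lay below 5.86 on all 6 arrays and had differences of -0.96, 0.82 and -0.57, with intervals several log2 units wide. The remaining one, 1453413_at, was at 5.32, 4.06 and 5.20 on the Naa10-KO arrays and 5.43, 6.02 and 5.90 on the WT arrays. All 3 Naa10-KO arrays lay lower there, as was the case for 7.82% of all probe sets. Its difference of -0.92 did not pass in limma over all probe sets (SE 0.41, adjusted p = 0.693), where 0 of 45037 passed. The Gnas locus is known for alternative first exons with imprinted transcripts, and the annotation used does not say which transcript each probe set reads. At low signal these probe sets do not show whether a minor Gnas transcript differed.

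The RefSeq promoter table (GRCm38.p6, 250 bases before to 50 after a transcript start) held 4 windows for Gnas. The core letters of the cAMP response element, TGACG on either strand, were in 3 of them, and 2 of these overlap and share the same site. The window of the most downstream start is shown because Gnas was the only measured member with such a match, with the core letters in capitals, here read on the opposite strand 216 bases before the start.
Gnas promoter, chr2:174329756-174330055, plus strand: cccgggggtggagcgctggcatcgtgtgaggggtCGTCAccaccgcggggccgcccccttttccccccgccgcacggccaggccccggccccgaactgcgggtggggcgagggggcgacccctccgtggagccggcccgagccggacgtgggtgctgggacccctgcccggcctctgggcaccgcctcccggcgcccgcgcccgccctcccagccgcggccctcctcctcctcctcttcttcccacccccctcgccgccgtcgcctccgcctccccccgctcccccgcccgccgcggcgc
This window is 81.7% G and C. Of the 32851 windows in the table, 20.8% hold these letters, so a match is common.

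Adcy3 encodes an adenylyl cyclase, a membrane enzyme that makes cAMP. It was at 9.05, 9.73 and 9.64 on the Naa10-KO arrays, against 9.66, 10.10 and 9.96 on the WT arrays. Naa10-KO replicate 1 was the lowest array, and Naa10-KO replicate 2 lay above WT replicate 1. Means were 9.47 ± 0.37 in Naa10-KO and 9.91 ± 0.22 in WT. The log2 difference of -0.43 did not pass (SE 0.25, 95% interval -1.05 to 0.19, limma adjusted p = 0.627), and it was -0.22 without Naa10-KO replicate 1. That array also had the widest gap between the 3' and 5' control probe sets of Gapdh, 0.55 log2 units, where the gap on the remaining 5 arrays was -0.27 to 0.01. The part of this in the Adcy3 value was not tested.

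The 4 Adcy3 probe sets disagreed in sign, with differences between -0.48 and 0.22. The probe set 1436928_s_at, with the only positive difference, was at 7.84, 9.13 and 8.53 on the Naa10-KO arrays and 8.23, 8.08 and 8.51 on the WT arrays. Its Naa10-KO arrays spread over more than a log2 unit and enclosed all WT arrays. The plot of differences by probe set shows all 15 intervals.

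**Figure D2:**
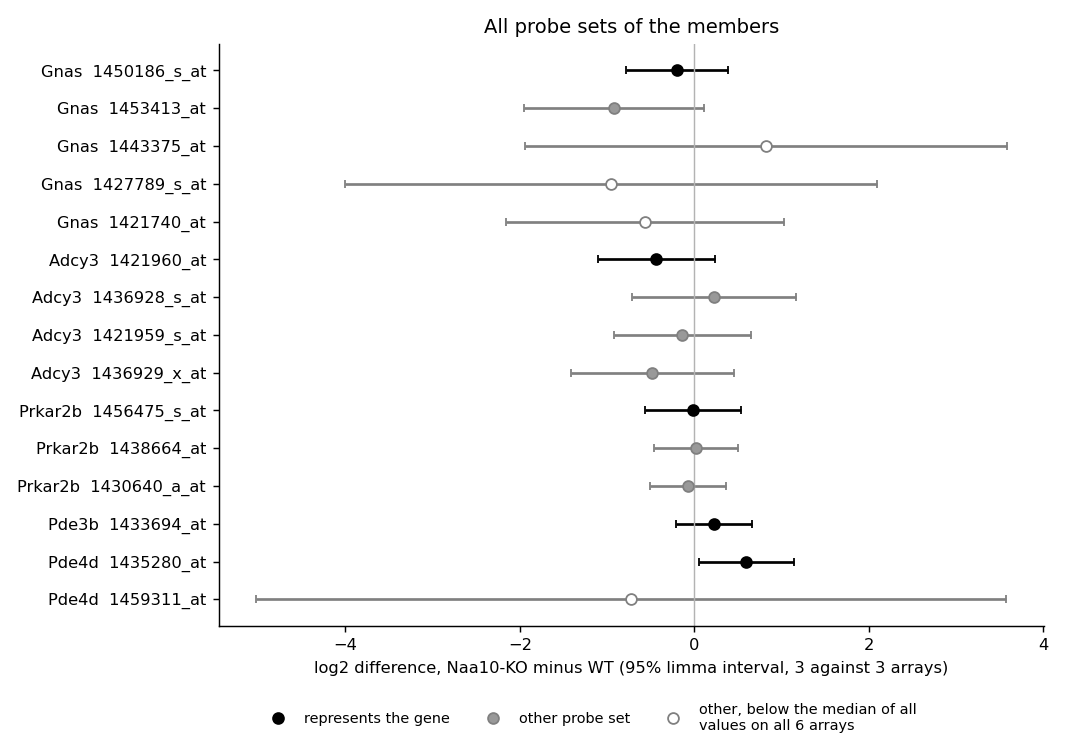
Log2 difference, Naa10-KO minus WT, with its 95% limma interval for each of the 15 probe sets of the members, fitted over all probe sets (3 against 3 arrays). Black points mark the probe set that represents a gene and open points those below 5.86 on all 6 arrays; the interval of the representing Pde4d probe set alone lies wholly above 0.

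Prkar2b encodes RIIβ, the PKA regulatory subunit that fat cells are known to use most. Its representing probe set was at 14.20, 14.16 and 14.32 on the Naa10-KO arrays, against 14.15, 14.01 and 14.56 on the WT arrays. The WT arrays spread on both sides of the Naa10-KO arrays. Means were 14.23 ± 0.08 in Naa10-KO and 14.24 ± 0.29 in WT. The log2 difference was -0.02 (SE 0.19, 95% interval -0.50 to 0.47, limma adjusted p = 0.985). The 2 other Prkar2b probe sets, also high on all arrays, differed by -0.07 and 0.02. The genotype differences of all 3 Prkar2b probe sets thus lay within 0.1 log2 units of each other. Their order of arrays was not shared. WT replicate 3 was the highest array in the representing probe set (14.56) but the lowest WT array in 1430640_a_at (13.29).

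Pde3b encodes the membrane phosphodiesterase through which insulin is known to lower cAMP in fat cells. It was at 14.43, 14.36 and 14.28 on the Naa10-KO arrays, against 14.16, 14.01 and 14.22 on the WT arrays. The lowest Naa10-KO array stood 0.06 log2 units above the highest WT array. Means were 14.36 ± 0.07 in Naa10-KO and 14.13 ± 0.11 in WT, a 1.17-fold difference. The log2 difference of 0.23 did not pass (SE 0.14, 95% interval -0.12 to 0.58, limma adjusted p = 0.642).

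Pde4d encodes a cAMP-specific phosphodiesterase that PKA is known to activate, so that it feeds back on the signal. It was at 10.70, 10.63 and 10.30 on the Naa10-KO arrays, against 9.76, 9.91 and 10.17 on the WT arrays. Every Naa10-KO array lay above every WT array, with Naa10-KO replicate 3 and WT replicate 3 closest. Means were 10.54 ± 0.21 in Naa10-KO and 9.95 ± 0.21 in WT, a 1.51-fold difference with a 95% interval of 1.08 to 2.11. The log2 difference of 0.60 was the largest among the members in either direction, but it did not pass over all genes (SE 0.19, unadjusted p = 0.0236, limma adjusted p = 0.501). By unadjusted p it stood at place 852 of 18193 genes. It lay between 0.50 and 0.72 in the 6 fits that each left out 1 array. The second Pde4d probe set, 1459311_at, lay below 5.86 on all arrays, scattered between -0.43 and 5.01 on the Naa10-KO arrays and between 0.53 and 4.49 on the WT arrays, and differed by -0.72 (SE 1.71). Averaging it with the first gave -0.06, so the positive difference rests on 1 probe set.

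The promoter window listed for Pde4d is shown because this gene had the largest difference among the members.
Pde4d promoter, chr13:108653927-108654226, plus strand: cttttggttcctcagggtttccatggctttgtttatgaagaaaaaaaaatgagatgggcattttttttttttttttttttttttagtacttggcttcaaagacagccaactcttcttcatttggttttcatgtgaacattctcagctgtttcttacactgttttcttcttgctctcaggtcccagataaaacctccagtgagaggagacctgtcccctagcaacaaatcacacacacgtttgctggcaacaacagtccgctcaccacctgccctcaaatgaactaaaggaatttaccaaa
It holds no TGACG on either strand, so no letters are in capitals, and 39.7% of its bases are G or C. Pde4d is known to have several promoters, of which the table lists 1. The windows of Adcy3 and Prkar2b, 2 each, held none either, and the table listed none for Pde3b.

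Skeletal muscle RNA moved with genotype on the same arrays. The mean log2 signal of 16 muscle markers was 11.46, 11.34 and 11.66 on Naa10-KO replicates 1 to 3, against 5.51, 6.07 and 8.68 on WT replicates 1 to 3. All 16 means were higher in Naa10-KO, 1 of them (Pvalb) past the threshold, and the summed linear signal was 124946 to 159094 in Naa10-KO mice and 8418 to 22853 in WT mice. None of the 16 was at or below 0 on any array, while 1 lay below 5.86 on Naa10-KO replicate 3, 0 on the other Naa10-KO arrays, and 1 to 11 on each WT array. Among the WT arrays, replicate 3 was highest both in this mean and in Pde4d, and without it the Pde4d difference was 0.71. Among the Naa10-KO arrays, replicate 3 was highest in this mean (11.66) but lowest in Pde4d (10.30). Muscle also contains Pde4d, and the part of muscle RNA in its difference was not tested. In bulk tissue, fewer cells of a type and less RNA per cell cannot be told apart.

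Fat cells were well represented in both genotypes. All 8 measured white adipocyte markers lay above 5.86 on every array, and their mean was 14.26 to 14.50 in Naa10-KO mice and 14.33 to 14.64 in WT mice. Adipoq, the hormone adiponectin, was at 15.71 in Naa10-KO and 15.61 in WT. Of the 8 adipocyte markers 0 passed in limma and 0 had an unadjusted p under 0.05, with a median difference of -0.05.

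The pathway beyond the members was followed through 93 further genes, of which 85 were measured. No gene among the 85 passed, 43 means were higher and 42 lower, and the median difference was 0.01, as it was over all genes. At an unadjusted p under 0.05 there were 4 genes, all higher in Naa10-KO, against 4.85% of all genes in that direction. Groups did not overlap for 11 higher and 4 lower genes, or 12.9% and 4.71% of the 85, beside 10.0% and 8.14% of all genes. The plot by role shows all 85 differences.

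**Figure D3:**
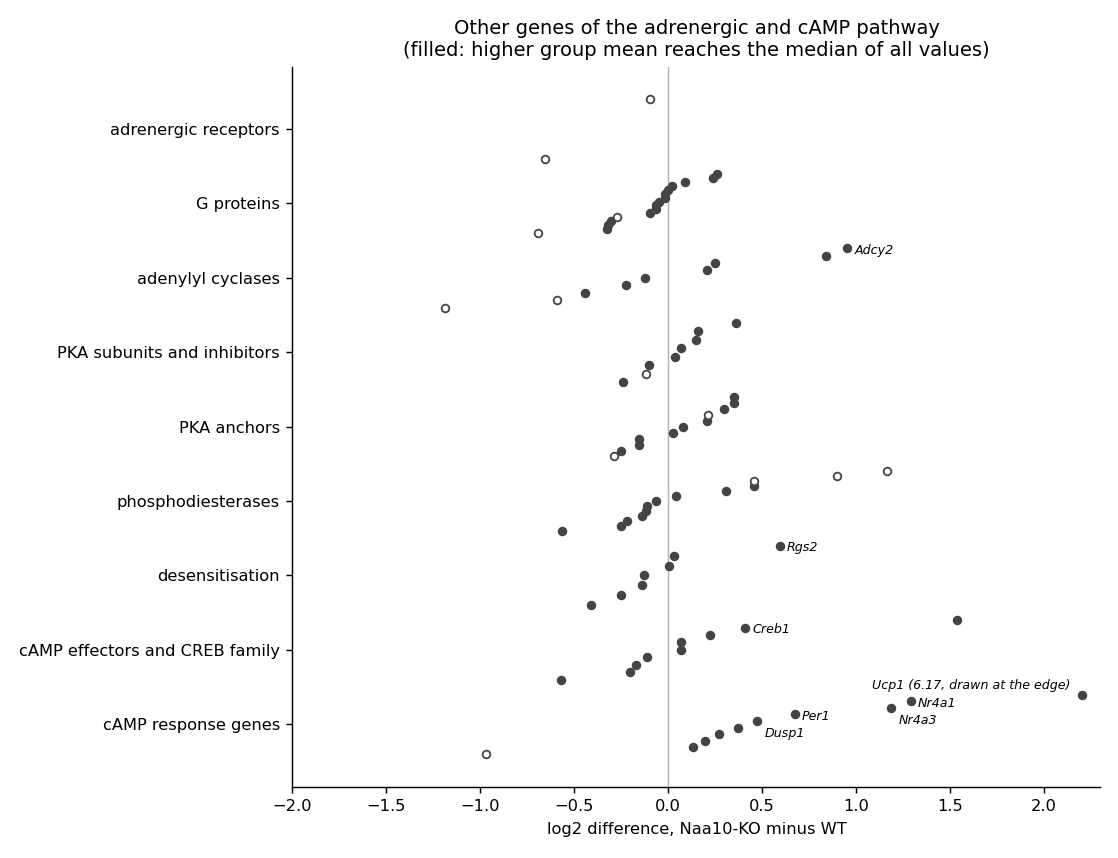
Log2 difference, Naa10-KO minus WT, of 85 other genes of the adrenergic and cAMP pathway, grouped by role (1 point per gene). Filled points reach 5.86 in at least 1 group mean; the named genes are those of smallest unadjusted p, none of which passed over all genes, and Ucp1 lies beyond the axis.

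Of the 5 other adrenergic receptors, 2 were measured, and both were weak. Adra1b, an α1 receptor, was at 1.86, 6.04 and 5.22 on the Naa10-KO arrays and 4.72, 5.32 and 5.05 on the WT arrays. Adra2c, an α2 receptor, was at 5.72, 2.68 and 4.98 on the Naa10-KO arrays and 5.25, 3.74 and 4.69 on the WT arrays. Only Naa10-KO replicate 2 of Adra1b exceeded 5.86, and the difference of each receptor had an SE near 1 log2 unit. At this signal a difference of 2-fold in these receptors was not detectable.

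Among 16 further G protein genes 4 means were higher and 12 lower, with a median difference of -0.06. The inhibitory subunit gene Gnai1 differed by 0.02 and the β subunit gene Gnb1 by -0.06. Among 9 other adenylyl cyclases, Adcy2 was at 7.86, 8.07 and 7.61 on the Naa10-KO arrays and 6.43, 7.23 and 7.02 on the WT arrays. Its groups did not overlap, yet the difference of 0.95 did not pass (SE 0.27, limma adjusted p = 0.473). Adcy5, Adcy6 and Adcy7 differed by 0.21, -0.23 and -0.12.

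The other 8 PKA genes had differences between -0.24 (Pkia, a PKA inhibitor peptide) and 0.36 (Prkar2a, the regulatory subunit RIIα). The median size of their differences was 0.13 log2 units, beside 0.29 for all genes. Their median SE was 0.17, beside 0.27 for all genes, so these sizes are not compared at like noise. Prkaca, the main catalytic subunit, was at 12.01, 12.19 and 12.48 on the Naa10-KO arrays and 12.26, 12.35 and 12.37 on the WT arrays. Its Naa10-KO arrays enclosed the WT arrays, and the log2 difference was -0.10 (SE 0.17, limma adjusted p = 0.861). Its probe set has the ending x_at, a design whose probes may also match other transcripts. Of 11 PKA anchor genes, 7 means were higher, the largest that of Akap7 (0.35).

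Among 13 other phosphodiesterases 6 means were higher and 7 lower. Pde4b, like Pde4d a cAMP-specific enzyme, was at 7.78 in Naa10-KO and 7.74 in WT (log2 difference 0.04, SE 0.28, limma adjusted p = 0.971). Pde3a, the paralogue of Pde3b in heart and vessels, lay below 5.86 in both group means. Pde8a differed by -0.22 with groups that did not overlap, the opposite direction to Pde3b and Pde4d. Of the genes that damp receptor signalling, Rgs2, which speeds the shut-off of G proteins, was at 10.12, 9.92 and 9.79 on the Naa10-KO arrays and 9.68, 9.46 and 8.90 on the WT arrays (log2 difference 0.59, SE 0.25, limma adjusted p = 0.549). Its value was 0.37 without WT replicate 3. Grk5, a receptor kinase, and Arrb2, an arrestin, differed by -0.41 and -0.25, both with all Naa10-KO arrays lowest.

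Genes that cAMP and CREB are known to induce stood higher in Naa10-KO in 9 of 10 cases, with 0 past the threshold and 3 at an unadjusted p under 0.05. Over all genes, 9349 of 18193 means were higher, and 4.85% of genes reached that p in that direction. Among the 9, the differences of Fos, Sik1 and Ppargc1a were each smaller than their SE. The median difference of the 10 was 0.42, beside 0.01 over all genes. The list includes Ucp1 and was chosen with earlier results of these data known. These counts and this median therefore describe the list and are no test of the pathway. Nr4a1, an orphan nuclear receptor made within minutes to hours of the signal, was at 7.85, 7.91 and 8.59 on the Naa10-KO arrays and 6.72, 6.73 and 7.03 on the WT arrays. Its lowest Naa10-KO array lay above its highest WT array by 0.82 log2 units. The difference of 1.29, or 2.44-fold, did not pass over all genes (SE 0.25, 95% interval 0.65 to 1.93, limma adjusted p = 0.268), and it lay between 1.05 and 1.42 with 1 array left out. With the trend and robust options of limma it passed (adjusted p = 0.0480), the only 1 of 15 alternative fits in which it did. That fit called 102 genes higher, where the main fit called 16.

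Its relative Nr4a3 was at 7.39, 6.09 and 6.14 on the Naa10-KO arrays and 5.74, 4.84 and 5.47 on the WT arrays, all WT values being below 5.86. The difference of 1.19 (SE 0.45, limma adjusted p = 0.537) was 0.76 without Naa10-KO replicate 1, the highest array, and turned to -0.09 when all probe sets of the gene were averaged. Nr4a2 overlapped between genotypes, with a difference of 0.37. Per1, a clock gene that CREB also drives, was at 8.0, 7.88 and 7.82 on the Naa10-KO arrays and 6.63, 7.62 and 7.43 on the WT arrays. WT replicate 1 stood apart, and the difference was 0.37 without it and 0.67 with all arrays. Dusp1, a phosphatase of MAP kinases, differed by 0.47, Sik1 by 0.20 and Fos by 0.13.

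Ucp1, which uncouples mitochondria in brown and beige fat and is a late target of this pathway, was at 9.56, 10.75 and 9.55 on the Naa10-KO arrays and 4.75, 4.01 and 2.60 on the WT arrays. Its lowest Naa10-KO array lay 4.80 log2 units above its highest WT array, and all WT values were below 5.86. The difference of 6.17 did not pass over all genes (SE 0.65, limma adjusted p = 0.0713). It passed under 3 of 15 alternative settings. Dio2, a deiodinase that cAMP induces in brown fat, was the exception in direction (log2 difference -0.97, SE 0.73) and lay below 5.86 on all 6 arrays. The coactivator gene Ppargc1a differed by 0.27 (SE 0.33). The CREB gene itself, Creb1, was at 10.63, 10.41 and 10.29 on the Naa10-KO arrays and 9.92, 10.19 and 10.00 on the WT arrays (log2 difference 0.41, SE 0.16, limma adjusted p = 0.542), and averaging its probe sets gave -0.28. Markers of brown and beige adipocytes stood beside these values. Their mean log2 signal over 9 genes, of which Ucp1, Dio2 and Ppargc1a are also response genes, was 8.81, 9.25 and 8.57 on the Naa10-KO arrays and 7.67, 7.81 and 7.39 on the WT arrays. Every Naa10-KO array lay above every WT array in this mean, and the summed linear signal was 13819 to 19581 in Naa10-KO mice and 4606 to 7699 in WT mice. That sum rests most on Cox8b, the highest of the 9 on every array (mean 13.16 in Naa10-KO and 11.99 in WT). In the mean log2 signal, Ucp1 had the largest of the 9 differences. Of the 9 markers, 7 means were higher, where 9349 of 18193 genes were so, and 0 passed in limma. At an unadjusted limma p under 0.05 there were 4, all higher in Naa10-KO, against 4.85% of all genes in that direction. The same 4 had groups that did not overlap, against 10.0% of all genes in that direction. They were Ucp1, Cidea (log2 difference 2.10), Cox7a1 (2.00, limma adjusted p = 0.0582) and Cox8b (1.17). Groups overlapped for Elovl3 (0.36), Ppara (0.34), Prdm16 (-0.12), Ppargc1a and Dio2. The marker list, too, was chosen with earlier results of these data known, so these counts describe it. None of the 9 was at or below 0 on any array, Dio2 lay below 5.86 on all 6 arrays, and Ucp1 did so on the 3 WT arrays. The muscle marker means given above moved with genotype beside all of these genes too. The part of either set of cells in the response genes was not tested.

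**Figure D4:**
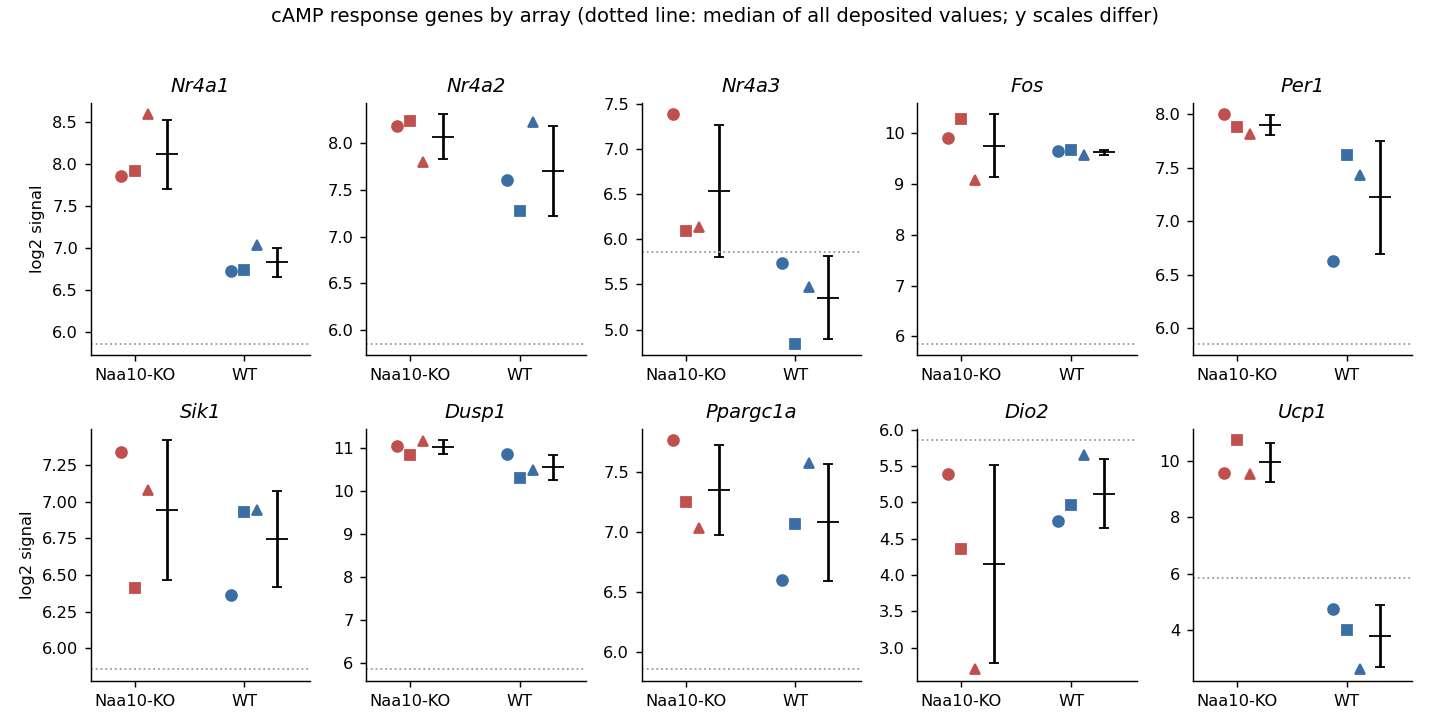
Log2 signal of 10 cAMP response genes on the 3 Naa10-KO arrays (red, left) and the 3 WT arrays (blue, right), with circle, square and triangle for replicates 1, 2 and 3, black bars for mean ± SD and a dotted line at 5.86, the median of all deposited values. Groups separate for Nr4a1, Nr4a3, Per1 and Ucp1, all higher in Naa10-KO, and overlap for the other 6. Of all genes, 10.0% separate in that direction. The axes differ between panels.

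The promoter window of Nr4a1 is shown as the response gene of smallest unadjusted p after Ucp1. Capitals mark the core letters of the cAMP response element, read here on the opposite strand at 233, 213, 69 and 40 bases before the start.
Nr4a1 promoter, chr15:101266596-101266895, plus strand: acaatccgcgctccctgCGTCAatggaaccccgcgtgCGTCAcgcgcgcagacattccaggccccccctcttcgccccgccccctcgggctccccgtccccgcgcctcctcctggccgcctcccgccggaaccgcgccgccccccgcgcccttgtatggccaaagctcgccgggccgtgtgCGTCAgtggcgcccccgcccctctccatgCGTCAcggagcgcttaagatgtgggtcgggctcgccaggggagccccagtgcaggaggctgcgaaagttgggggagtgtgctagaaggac
At least 4 matches were in 0.23% of all windows, and Nr4a2 and Nr4a3 had 4 each as well. A window was listed for 9 of the 10 response genes, and each of their 10 windows held a match, against 20.8% of all windows. The full palindrome, TGACG followed by TCA and counted here as a match on each strand, was in the windows of Dusp1 and Dio2 and in 1.79% of all windows. The genes were put on the list as known CREB targets, so this match is a description of the list. The Pde4d and Gnas windows above had 0 and 1.

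The genes whose log2 profile over the 6 arrays was most like that of each member were found among 11358 genes of at least median signal, by Pearson's r. For Pde4d they were 1810044D09Rik (r = 0.993), Phpt1 (0.992) and Acsm3 (0.991), and Acsm3 averaged 10.35 in Naa10-KO and 8.35 in WT. For Pde3b they were Adamtsl1 (0.999), Wdr53 (0.995) and Cox7a2 (0.993). Adcy3 was followed most closely by Trabd and Bmp1 (0.996 each), Gnas by Il17re (0.995) and Prkar2b by H2ax (0.980). Each r is the highest among 11358 over only 6 arrays that share the genotype difference, so it describes likeness on these arrays and no more.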

How the data were processed

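Per the labels' protocols, RNA was extracted with TRIzol and RNeasy Plus columns after lipid was removed, and 3 µg of it was made into biotinylated cRNA. The deposited table holds log2 signals of 45101 probe sets, 1 value per array. The linear mean after trimming 2% at each end was 500 on every array, which marks a global scaling by the authors, with software not given in the sources used here. No detection calls were used, so a low signal may be background. Values were used as deposited. Pairs of arrays correlated at 0.903 to 0.917.

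Gene names came from GEO's 2016 annotation of the platform. Leaving out 64 controls, it gave 1 gene for 34945 of 45037 probe sets, several for 932 and none for 9160. Entrez identifiers of 34741 matched RefSeq (GRCm38.p6), changing 0 symbols. The probe set of highest mean represented a gene. limma 3.58.1 in R 4.3.3 (lmFit, eBayes, 2-sided, genotype only) gave Benjamini-Hochberg adjusted p-values over 18193 genes, with 1.39 prior degrees of freedom. Probe sets were also fitted one by one over 45037. The steps were tested on simulated data.

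Named genes are the members, the 8 further pathway genes of smallest unadjusted p at or above median signal, Prkaca, and the 3 genes most like each member. Others were chosen after their values were seen. The members and lists were chosen with earlier results of these data known. Precision is limited by the number of arrays, and as nothing says how the mice relate, p-values measure the spread between these mice. Alternatives were other scalings, low-value rules, probe set choices, eBayes options, array weights, the replicate block and leaving out each array.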

Additional observations from a re-analysis of the deposited data

How the results depend on the processing

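No member passed in any of the 16 alternatives, counting the fit of all probe sets one by one. In that fit 0 of 45037 probe sets passed, so the result there is not particular to the members. The same holds for each alternative below in which 0 genes passed in either direction. Adcy3, Gnas and Pde3b kept their direction in 15 of 15 fits and Pde4d in 14. The low-value filter, raised values, eBayes options and replicate block left each member's difference unchanged, so direction was bound to hold there. For Pde3b, with 1 probe set, the probe set choices could not change it either. The Pde4d difference was -0.062 with the mean of all probe sets. That of Prkar2b, -0.02 with all arrays, turned to 0.022 without x_at and s_at probe sets and with array weights, and lay between -0.13 and 0.15 with 1 array left out (0.016 without Naa10-KO replicate 2, 0.15 without WT replicate 3). Without s_at probe sets Gnas was represented by 1453413_at, at -0.92. Among other named genes, the mean of all probe sets turned Nr4a3 to -0.088 and Creb1 to -0.28, and Prkaca lay between -0.23 and 0.0073 with 1 array left out, positive only without Naa10-KO replicate 1. Over all genes, 16 were higher and 5 lower as reported. These counts were 75 and 12 after filtering low values, 104 and 13 with low values raised to the median, 102 and 35 with trend and robust options, and 0 and 0 with the mean of all probe sets. Quantile normalization gave 3 lower and array weights 27 higher. Leaving out 1 array gave 0 to 29 higher and 0 to 1 lower, with calls only without WT replicate 3, while 1220 to 1727 genes had unadjusted p-values below 0.05 in those limma fits. Ucp1 was the 1 further pathway gene past the threshold under the filter and under raised values, and Ucp1 and Nr4a1 were the 2 with trend and robust options. With the replicate number as a block, 0 genes passed in either direction, 1276 had an unadjusted p under 0.05, and each member's difference stayed the same. Same-numbered arrays did not deviate together (correlations of deviations from group means -0.03 to -0.01), and no label pairs the mice. The cause of these shifts was not tested. Signals below 5.86 limit what can be said of the receptors Adra1b and Adra2c and of the minor Gnas and Pde4d probe sets. Adrb1, Adrb3, Adra1a and Adra2a had no named probe set, so nothing can be said of their signal.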
